A study of Mus musculus with 6 samples.

Results

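The genes described are Btg1, Btg2, Btg3, Tob1 and Tob2 of the BTG/TOB family of antiproliferative proteins, together with Plk2 and Plk3, the stress-responsive polo-like kinases. They were chosen by symbol, and all 7 were listed among the 23284 gene symbols of the count tables. Polyadenylated RNA was sequenced from C57BL/6 mouse erythroblasts (nucleated red cell precursors) of E10.5 embryos. The cells were sorted alive as positive for Ter119, a red cell surface antigen, and CD71, the transferrin receptor. The Setd8 null group held 3 libraries with the genotype SETD8fl/fl EpoR Cre, in which the Cre recombinase driven from the erythropoietin receptor locus is meant to delete floxed Setd8 in the red cell lineage. Of the 3 control libraries, replicates 1 and 3 were Setd8 +/+ EpoRCre, with Cre and intact Setd8, and replicate 2 was Setd8 fl/fl EpoR WT, with floxed alleles and no Cre. No control carried floxed alleles together with Cre. The sample labels name fetal liver as the source and the design text names blood. Setd8 encodes the enzyme that monomethylates histone H4 at lysine 20, and the series asked how erythroblasts differ without it.

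BTG and TOB proteins share a conserved amino-terminal domain that binds the Caf1 deadenylases CNOT7 and CNOT8. Through them the CCR4-NOT complex is brought to messenger RNAs, which then lose their poly(A) tails. TOB proteins also bind the poly(A)-binding protein. Forced expression of these proteins slows the passage from G1 to S phase in many cell types, and Btg1 is high in resting lymphocytes. Btg2, Plk2 and Plk3 are known both as early-response genes and as genes that p53 activates after DNA damage. Plk2 acts in centriole duplication and Plk3 in stress responses, whereas their relatives Plk1 and Plk4 drive mitosis and the start of centriole assembly.

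Gene counts summed to 7756940 to 21434719 reads per library, and globin genes took 26.5% to 39.9% of them in null and 37.1% to 45.2% in control libraries. Sample titles without a trailing letter (null replicate 1, control replicates 1 and 2; the unlettered set) and with one (null replicates 2 and 3, control replicate 3; the lettered set) formed 2 sets. Between these sets 28.5% of 10512 tested genes differed. Each comparison is therefore given from edgeR's quasi-likelihood fit with the set as a term (set-adjusted) and from the fit with group alone, with p-values adjusted over all tested genes by Benjamini-Hochberg at a threshold of 0.05. Setd8 itself stood at 48.9, 100 and 96.3 CPM (TMM-scaled counts per 1000000 reads) in null replicates 1 to 3, against 73.9, 74.8 and 203 CPM in control replicates 1 to 3. Its log2 ratio of null over control was -0.83 set-adjusted (SE 0.17, adjusted p = 0.00911, a fall), and it did not pass with group alone (adjusted p = 0.702). The Y-linked gene Eif2s3y had at least 1389 reads in each null library and 372 in control replicate 1, and 0 in control replicates 2 and 3. Libraries with Y-linked reads were thus spread unevenly over the groups.

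Btg1, Btg2, Tob1 and Plk2 were higher in Setd8 null erythroblasts than in controls in the set-adjusted fit, by 3.73-fold (Btg2) to 85.4-fold (Plk2). With group alone, Btg1 and Plk2 passed. Plk3 and Tob2 did not pass in either fit, and Btg3 had no reads. The 4 members called higher set-adjusted stand beside 8.65% of all tested genes called higher, and the 2 with group alone beside 1.14%. No member was called lower by this test (0 at unadjusted p under 0.05 and 0 by DESeq2 in either fit), beside 4.16% of all genes set-adjusted and 0.00951% with group alone; in either direction 12.8% and 1.15% of all genes were called. The null libraries all exceeded the control libraries for 5 members (those with reads except Tob2), beside 14.9% of tested genes, and all lay below them for 0 members, beside 9.16%. The median log2 ratio of the 6 tested members was 2.30 set-adjusted, against 0.044 over all tested genes. Of the members, 6 passed the filter on low counts. Plk2 reached the filter's 0.550 CPM in all 3 null but only 2 control libraries and so was tested because null libraries had reads.

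**Figure D1:**
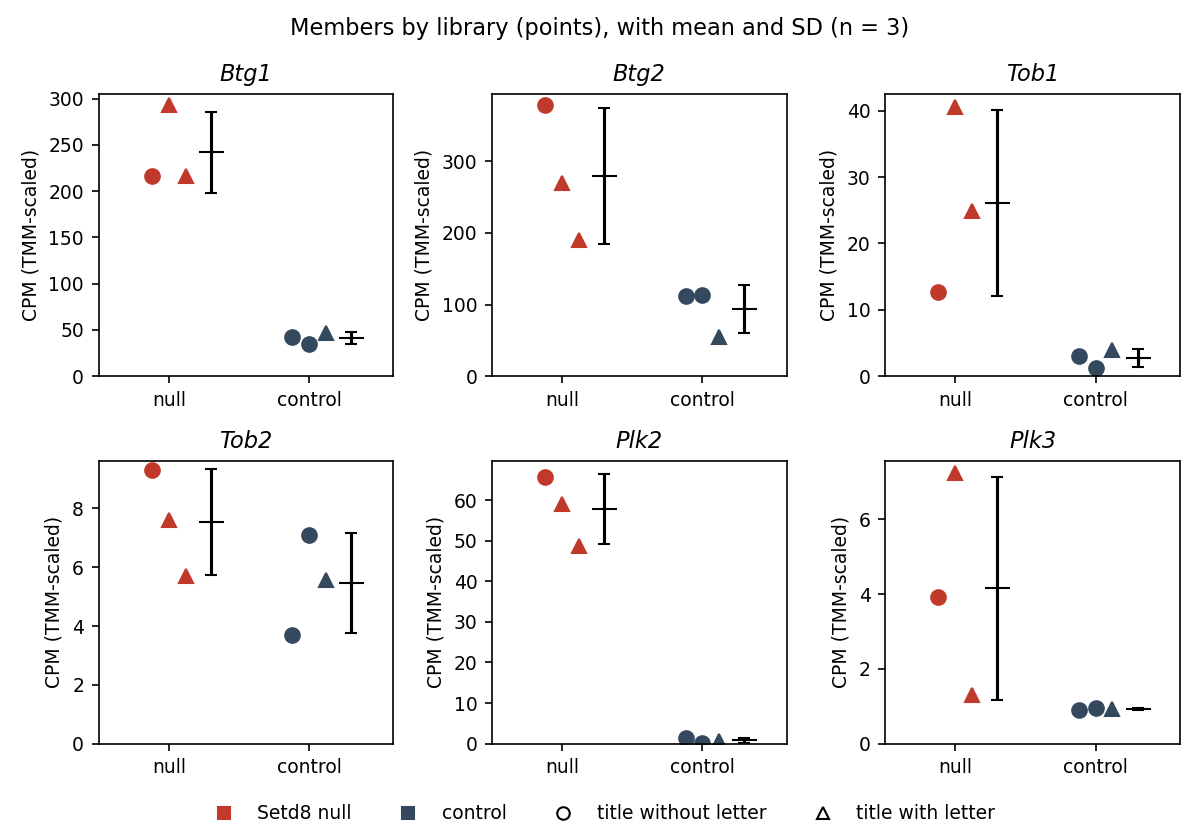
TMM-scaled CPM of the 6 members with reads, in the 3 Setd8 null libraries (left, red) and the 3 control libraries (right, dark) of each panel; circles are libraries with unlettered titles, triangles lettered ones, and the bars beside them give mean and SD. For Btg1, Btg2, Tob1, Plk2 and Plk3 every null point lies above every control point, narrowly so for Plk3 (1.29 against 0.959 CPM), and for Tob2 the groups overlap.

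Since 4 of the members were called higher, their promoter windows, from 250 bases before to 50 after the annotated start, are shown (RefSeq, build GRCm38.p6; the authors' build was mm9, and the windows were not used for any count). All 7 members had a window, in 8 windows with 2 for Btg3. Capitals mark the cyclic AMP response element TGACGTCA and its core TGACG, which on the other strand reads CGTCA as printed. The motif was chosen after the values and the sequences had been seen. Btg2 lies at chr1:134079106-134079405 (minus strand), Plk2 at chr13:110394794-110395093 (plus strand), Btg1 at chr10:96616751-96617050 (plus strand) and Tob1 at chr11:94211204-94211503 (plus strand), all printed 5′ to 3′ on the gene's strand.
Btg2: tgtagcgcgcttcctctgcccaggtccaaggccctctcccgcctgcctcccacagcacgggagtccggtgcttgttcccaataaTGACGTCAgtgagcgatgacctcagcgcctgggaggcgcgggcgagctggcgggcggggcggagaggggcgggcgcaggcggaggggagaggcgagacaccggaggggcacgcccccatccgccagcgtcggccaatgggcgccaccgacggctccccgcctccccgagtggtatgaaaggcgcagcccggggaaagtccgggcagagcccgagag
Plk2: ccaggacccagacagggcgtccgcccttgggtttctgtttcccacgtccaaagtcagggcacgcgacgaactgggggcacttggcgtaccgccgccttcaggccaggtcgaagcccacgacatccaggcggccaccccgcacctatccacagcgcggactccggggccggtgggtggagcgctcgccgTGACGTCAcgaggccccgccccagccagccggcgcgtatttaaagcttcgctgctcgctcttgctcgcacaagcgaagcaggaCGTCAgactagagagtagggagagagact
Btg1: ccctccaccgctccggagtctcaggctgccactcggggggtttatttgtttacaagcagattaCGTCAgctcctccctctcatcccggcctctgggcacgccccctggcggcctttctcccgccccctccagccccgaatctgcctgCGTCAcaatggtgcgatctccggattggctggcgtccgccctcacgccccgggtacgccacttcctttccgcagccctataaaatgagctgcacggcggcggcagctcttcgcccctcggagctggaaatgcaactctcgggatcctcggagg
Tob1: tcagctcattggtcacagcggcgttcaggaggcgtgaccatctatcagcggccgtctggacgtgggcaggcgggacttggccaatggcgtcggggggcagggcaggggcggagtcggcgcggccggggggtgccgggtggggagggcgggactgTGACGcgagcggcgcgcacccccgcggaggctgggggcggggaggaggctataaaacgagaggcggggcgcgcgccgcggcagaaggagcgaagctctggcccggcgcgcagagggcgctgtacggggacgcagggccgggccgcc
The full palindrome TGACGTCA was found in the Btg2 window, starting 166 bases before the start, and in the Plk2 window, 62 bases before it. It occurs in 1.79% of 32851 promoter windows of this length. The core TGACG, which the full element contains on both strands, was found in the windows of 5 of 7 members (Btg1, Btg2, Tob1, Plk2 and Plk3) and in 20.8% of all windows. A TATAAA box was found for Btg1 and Tob1, against 13.6% of all windows. The CCAAT box was found for 4 of 7 members (Btg1, Btg2, Btg3 and Tob1), against 37.4% of all windows. A p53 response element, searched as a pair of sites at most 13 bases apart with at most 2 mismatches in all, was found in no member's window and in 4.09% of all windows. Elements outside these 300 bases were not searched.

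Btg1, which recruits CCR4-NOT and marks quiescent cells, had 217, 293 and 216 CPM in null replicates 1 to 3, against 42.2, 34.2 and 46.8 CPM in control replicates 1 to 3. All null libraries lay above all controls, the lowest null at 4.62 times the highest control, while libraries of each group were close together. Its mean was 242 ± 44.0 CPM in null and 41.1 ± 6.37 CPM in control libraries (SD, n = 3 each). Btg1 rose by a log2 ratio of 2.47 set-adjusted (SE 0.18, adjusted p = 1.56e-05, edgeR) and 2.56 with group alone (SE 0.24, adjusted p = 0.0113). Within the sets the log2 ratio was 2.51 (unlettered) and 2.42 (lettered). With group alone the call was lost without control replicate 1 (adjusted p = 0.0730), control replicate 2 (0.0726) or null replicate 2 (0.0857), at log2 ratios of 2.34 to 2.56. Of the 50-base windows of the Btg1 transcript, 2.63% recur in another annotated gene, Gm14519.

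Btg2, also named Tis21 and Pc3, had 379, 270 and 190 CPM in null replicates 1 to 3, against 112, 113.5 and 55.3 CPM in control replicates 1 to 3. In both groups the lettered libraries were the lower ones, yet each null library exceeded every control, the closest pair by 1.67 times. Btg2 averaged 279.5 ± 94.7 CPM in null and 93.6 ± 33.2 CPM in control libraries (SD, n = 3 each). It rose by a log2 ratio of 1.90 set-adjusted (SE 0.18, adjusted p = 0.000103, edgeR), and with group alone the log2 ratio was 1.58 (SE 0.38, adjusted p = 0.111), which did not pass. The sets themselves differed for Btg2, with a log2 ratio of lettered over unlettered of -0.87 (SE 0.18, adjusted p = 0.0036). The null over control log2 ratio was 1.75 within the unlettered and 2.03 within the lettered set.

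Tob1, which links CCR4-NOT to the poly(A)-binding protein, had 12.7, 40.6 and 24.9 CPM in null replicates 1 to 3, against 2.96, 1.23 and 3.95 CPM in control replicates 1 to 3. The groups did not overlap, and the unlettered null library was the lowest of its group at 3.22 times the highest control. The mean was 26.09 ± 13.97 CPM in null and 2.71 ± 1.38 CPM in control libraries (SD, n = 3 each), from 1491 and 128 reads. Tob1 rose by a log2 ratio of 2.88 set-adjusted (SE 0.41, adjusted p = 0.00174, edgeR). With group alone the log2 ratio was 3.26 (SE 0.60, adjusted p = 0.0677), which did not pass. Without null replicate 1, which leaves no null library in the unlettered set, the set-adjusted adjusted p was 0.0642 at a log2 ratio of 3.04.

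Tob2, the close relative of Tob1, had 9.29, 7.60 and 5.69 CPM in null replicates 1 to 3, against 3.71, 7.08 and 5.58 CPM in control replicates 1 to 3. These values overlapped. Tob2 had a log2 ratio of 0.51 set-adjusted (SE 0.52, adjusted p = 0.573, edgeR) and 0.46 with group alone (SE 0.49, adjusted p = 0.740). Within each library, reads per kb of Tob1 stood at 2.49, 9.70 and 7.95 times those of Tob2 in null replicates 1 to 3, against 1.45, 0.314 and 1.29 times in control replicates 1 to 3. That ratio needs no scaling between libraries, and the groups did not overlap in it.

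Btg3 had 0 reads in each of the 6 libraries, as did 4276 of the 23284 symbols. A count of 0 allows up to 3 reads, or 0.140 to 0.387 CPM before TMM scaling (counting error only). Of the 50-base windows of the longest annotated Btg3 transcript, 30.5% recur in other annotated genes, 17% in Cxadr, which overlaps it on the opposite strand, and 13.1% in Gm7334, a processed pseudogene listed with 0 reads as well. Whether the reads of Btg3 were lost in counting was not tested, so its level in these cells is not given by these tables. Btg4, the remaining family member, known from oocytes, had 0 reads too.

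Plk2, a polo-like kinase of centriole duplication and stress, had 65.6, 59.1 and 48.6 CPM in null replicates 1 to 3, against 1.48, 0.266 and 0.698 CPM in control replicates 1 to 3. The null libraries rested on 1122, 1151 and 941 reads and the controls on 10, 5 and 15. The lowest null library stood at 32.8 times the highest control. Plk2 averaged 57.8 ± 8.54 CPM in null and 0.815 ± 0.616 CPM in control libraries (SD, n = 3 each). It rose by a log2 ratio of 6.42 set-adjusted (SE 0.45, adjusted p = 1.43e-05, edgeR) and 6.26 with group alone (SE 0.55, adjusted p = 0.0118), and by 6.39 and 6.04 within the unlettered and lettered sets. With group alone the call was lost without null replicate 2 (adjusted p = 0.0930) or null replicate 3 (0.0507), and the log2 ratio was 5.78 without control replicate 2 and 6.85 without control replicate 1. Set-adjusted it was 5.92 without control replicate 2.

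Plk3, the other stress-responsive polo-like kinase, had 3.92, 7.24 and 1.29 CPM in null replicates 1 to 3, against 0.889, 0.959 and 0.930 CPM in control replicates 1 to 3. Null replicate 3 lay close to the controls, with 25 reads, and null replicate 2 highest, with 141. Its log2 ratio was 2.13 set-adjusted (SE 0.91, adjusted p = 0.166, edgeR) and 2.15 with group alone (SE 0.81, adjusted p = 0.278), and it did not pass in either fit. Without null replicate 2 the log2 ratio was 1.37 set-adjusted and 1.44 with group alone. Per kb, Plk2 stood at 14.2, 6.93 and 32 times Plk3 in null replicates 1 to 3, against 1.42, 0.236 and 0.637 times in control replicates 1 to 3. Plk3 overlaps Tctex1d4 on the opposite strand, which held 10 reads in all, and the sources used here do not say whether counting used strand.

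**Figure D2:**
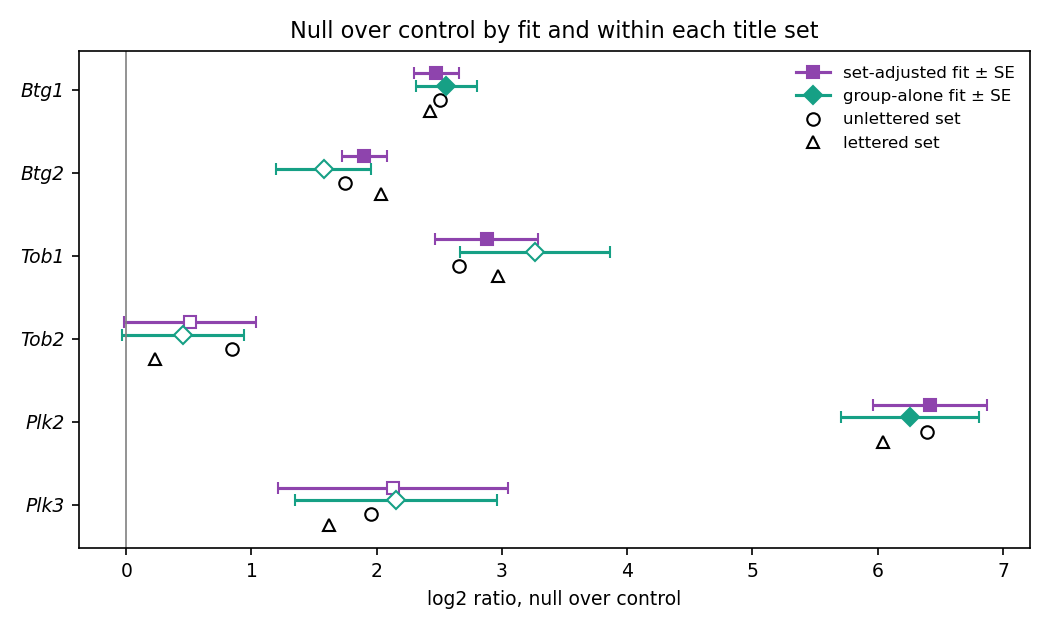
Log2 ratio of null over control for the 6 tested members: squares give the set-adjusted fit and diamonds the fit with group alone, each with its SE, filled where the adjusted p was under 0.05; open circles and triangles are the ratios within the unlettered and lettered sets, with no test. Plk2 stands apart at 6.42, and the within-set ratios of each member are positive in both sets, least so for Tob2 (0.84 and 0.23).

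The null effect did not pass a test of difference between the title sets for any member. In the fit with an interaction of group and set, which had 2 residual degrees of freedom, 0 of 6 members passed by edgeR's quasi-likelihood test (0 at unadjusted p under 0.05; lowest adjusted p 0.894; not run with DESeq2), beside 0.00951% of all tested genes. The interaction was -0.07 on the log2 scale for Btg1 (SE 0.34), 0.31 for Btg2 (SE 0.33) and -0.33 for Plk2 (SE 0.95), lettered minus unlettered. Control replicate 1, the only control with Y-linked reads beyond 8 per gene, is the shallowest library. Its values of Btg1 (42.2 CPM), Btg2 (112 CPM), Tob1 (2.96 CPM) and Plk2 (1.48 CPM) lay below all null libraries. The floxed control without Cre, replicate 2, lay below them too. Each of these 2 controls is a single library, with 10 and 5 reads of Plk2. The part of Y-linked status or of control genotype in the ratios was not tested.

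Per kb of annotated exon, which allows for gene length, Btg2 was the most abundant member in both groups. In null libraries its place above Btg1 rests on the lengths used, 5276 bases for Btg1 and 2743 for Btg2. Before division by length, Btg1 had 293 and 216 CPM in null replicates 2 and 3, against 270 and 190 CPM for Btg2. In null replicate 1 and all controls Btg2 was higher before division too. The lengths come from GENCODE M21, while the counts were made on build mm9. In null libraries Btg2 averaged 102 ± 34.5 CPM per kb, Btg1 45.8 ± 8.35, Plk2 20.6 ± 3.05, Tob1 11.4 ± 6.11, Tob2 1.81 ± 0.435 and Plk3 1.75 ± 1.25 (SD, n = 3). In control libraries Btg2 averaged 34.1 ± 12.1 CPM per kb, Btg1 7.79 ± 1.21, Tob2 1.31 ± 0.408, Tob1 1.19 ± 0.604, Plk3 0.389 ± 0.0147 and Plk2 0.291 ± 0.220. The ranges of the neighbours Plk2 and Tob1 overlapped across null libraries, but within each null library Plk2 was the higher. Tob2 and Plk3 overlapped in null libraries, and their order changed between libraries. In controls Tob2 and Tob1 overlapped, as did Plk3 and Plk2, and the order within each pair changed between libraries. Plk2 held the third place in null and the lowest among members with reads in control libraries. Btg1 stood at 0.298, 0.563 and 0.592 times Btg2 per kb in null replicates 1 to 3, against 0.196, 0.157 and 0.440 times in control replicates 1 to 3. Within each set this ratio was higher in null than in control libraries, and across the sets the groups overlapped.

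**Figure D3:**
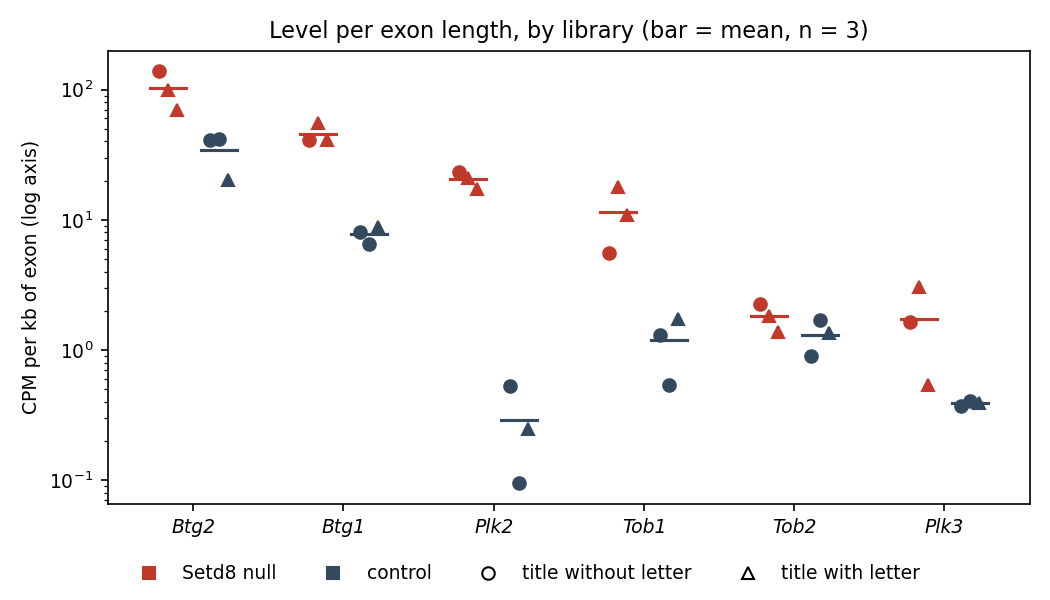
CPM per kb of annotated exon on a log axis for the 6 members with reads, null libraries left and control libraries right of each gene; bars are means of 3 libraries. Btg2 and Btg1 lead in both groups, and Plk2 spans the widest gap, 20.6 against 0.291 CPM per kb.

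For each tested member the genes with the nearest profile were found by the root mean square difference of log2 CPM, centred on each gene's mean, over the 6 libraries; this is a description of likeness. The nearest to Plk2 was Cdkn1a, the cell cycle inhibitor p21, at a difference of 0.368, with 735 ± 189 CPM in null and 9.69 ± 3.79 CPM in control libraries (SD, n = 3). Cpt1c (0.373) and Eda2r (0.437) followed. The nearest to Btg1 were Klf6 (0.205), an early-response zinc finger factor, Abhd4 (0.205) and Fam158a (0.245). To Btg2 they were Akap13 (0.202), S100a1 (0.209) and Ripk3 (0.214), a kinase of necroptosis. Bin1 (0.221), Id1 (0.289), an inhibitor of helix-loop-helix factors, and Ptpn13 (0.305) lay nearest to Tob1. The nearest to Plk3 were Plekhg5 (0.292), Sfmbt2 (0.354) and Kcnj5 (0.393), and to Tob2 1110019D14Rik (0.0771), Zkscan17 (0.0794) and Dhx38 (0.0841). Trp53, the gene of p53, stood at 275, 136 and 146 CPM in null replicates 1 to 3, against 251, 246 and 129 CPM in control replicates 1 to 3. It did not pass (edgeR adjusted p = 0.599 set-adjusted, 0.891 with group alone). Mdm2, looked at beside Trp53, averaged 284 ± 43.3 CPM in null and 25.5 ± 12.8 CPM in control libraries (SD, n = 3 each). Its log2 ratio was 3.34 set-adjusted (SE 0.23, edgeR adjusted p = 1.41e-05), and it passed with group alone (adjusted p = 0.0189). Whether p53 activity differed cannot be read from Trp53 RNA and was not tested.

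Of the CCR4-NOT deadenylase, the complex that BTG and TOB proteins bind, 11 of 12 listed subunits were tested and 0 passed in either direction in either fit (edgeR; at unadjusted p under 0.05, 2 lower set-adjusted and 1 lower with group alone; by DESeq2, 2 lower set-adjusted and 0 with group alone). The list's median log2 ratio was -0.11 set-adjusted. Over all tested genes, 12.8% were called in either direction set-adjusted and 1.15% with group alone. The direct partner Cnot7 had 6.84, 40 and 52.9 CPM in null replicates 1 to 3, against 9.78, 10.7 and 36.7 CPM in control replicates 1 to 3, and followed the title sets more than the groups. Cnot8, its paralog, had 76.3, 102 and 95.2 CPM in null replicates 1 to 3, against 42.1, 72.0 and 71.9 CPM in control replicates 1 to 3 (log2 ratio 0.43, SE 0.22, adjusted p = 0.231, edgeR set-adjusted). The Cnot8 groups did not overlap, as for 14.9% of all tested genes with null above control.

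Set-adjusted, 8.65% of all tested genes rose and 4.16% fell, and the counts of the lists below stand beside these shares. The lists were not tested as sets. Among 8 genes of the other deadenylases and of poly(A) binding, 1 rose set-adjusted and 0 fell, with a median log2 ratio of -0.30. The gene was Parn, the poly(A)-specific ribonuclease, at 62.7 ± 13.1 CPM in null and 33.5 ± 7.59 CPM in control libraries (SD, n = 3 each), and higher in 3 of 3 null libraries than in any control (edgeR adjusted p = 0.0175). Parn was not called when any of 4 libraries was left out (control replicates 1 and 3, null replicates 1 and 2). Of 12 decapping and 5′ decay genes, 0 rose and 1 fell set-adjusted, Lsm14a (log2 ratio -1.07, SE 0.23, adjusted p = 0.0107), and the median was -0.30. Of 13 tested adaptors that bring CCR4-NOT to RNA by other routes, 1 rose, Zfp36 (tristetraprolin, which binds AU-rich elements), with 27.8, 27.8 and 14.6 CPM in null replicates 1 to 3, against 7.11, 6.44 and 3.49 CPM in control replicates 1 to 3 (log2 ratio 2.32, SE 0.37, adjusted p = 0.00317). The list's median was 0.14. Of 8 tested partners and reported targets of BTG and TOB, 1 rose, the retinoblastoma gene Rb1, at 46.1 ± 17.2 CPM in null and 7.92 ± 6.81 CPM in control libraries (SD, n = 3 each), a log2 ratio of 2.31 (SE 0.35, edgeR adjusted p = 0.00182). The median of this list was -0.07. With group alone none of these lists held a call (edgeR), with 1 adaptor and 1 partner called by DESeq2. Without null replicate 1 none of Parn, Lsm14a, Zfp36 and Rb1 was called, and Lsm14a was not called without control replicate 3 either.

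Among the relatives of Plk2 and Plk3, Plk4 fell. It had 9.58, 31.4 and 63.0 CPM in null replicates 1 to 3, against 36.8, 25.7 and 99.2 CPM in control replicates 1 to 3. Within each set the null libraries were lower, and across sets the groups overlapped. For Plk4 the set-adjusted log2 ratio was -1.37 (SE 0.30, edgeR adjusted p = 0.0164), and with group alone its log2 ratio was -0.64 (adjusted p = 0.771). Without null replicate 1 or control replicate 3, Plk4 was not called. Plk1, the mitotic kinase, averaged 75.6 ± 27.95 CPM in null and 90.1 ± 14.7 CPM in control libraries (SD, n = 3 each) and did not pass (log2 ratio -0.54, SE 0.21, adjusted p = 0.132 set-adjusted). Plk5 was too low to test, with 38 reads over the null and 2 over the control libraries.

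Immediate early genes, a class to which Btg2, Plk2 and Plk3 belong, were higher in part. Of 14 tested of 19 listed, 7 rose and 0 fell set-adjusted, and 2 rose and 0 fell with group alone (Jun and Klf6). Over all tested genes, 8.65% rose and 4.16% fell set-adjusted, and 1.14% rose with group alone. The list's median log2 ratio was 1.37 set-adjusted. Klf6 averaged 72.1 ± 10.9 CPM in null and 15.2 ± 4.24 CPM in control libraries (SD, n = 3 each), with a set-adjusted log2 ratio of 2.19 (SE 0.26, edgeR adjusted p = 0.000332). Jun, an AP-1 subunit, had 16, 52.5 and 28.4 CPM in null replicates 1 to 3, against 1.04, 2.61 and 1.67 CPM in control replicates 1 to 3 (log2 ratio 3.80, SE 0.46, adjusted p = 0.000894). Junb and the phosphatase gene Dusp1 rose set-adjusted, and in both groups their lettered libraries lay above the unlettered ones. Junb had 1.52, 48.2 and 39.2 CPM in null replicates 1 to 3, against 0.148, 0.213 and 11.3 CPM in control replicates 1 to 3, and Dusp1 had 23.4, 205 and 195 CPM in null replicates 1 to 3, against 15.4, 10.4 and 90.5 CPM in control replicates 1 to 3. The adjusted p was 0.00352 for Junb (log2 ratio 2.23) and 0.00733 for Dusp1 (1.02). Fos, the partner of Jun, had 8.82, 10.4 and 1.86 CPM in null replicates 1 to 3, against 4, 8.15 and 1.30 CPM in control replicates 1 to 3, and did not pass (adjusted p = 0.327). With group alone 0 of these genes rose when any of 4 libraries was left out (null replicates 2 and 3, control replicates 1 and 2), and 1 when null replicate 1 or control replicate 3 was. Set-adjusted, 3 rose without null replicate 1, and 4 without control replicate 3 or null replicate 2.

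**Figure D4:**
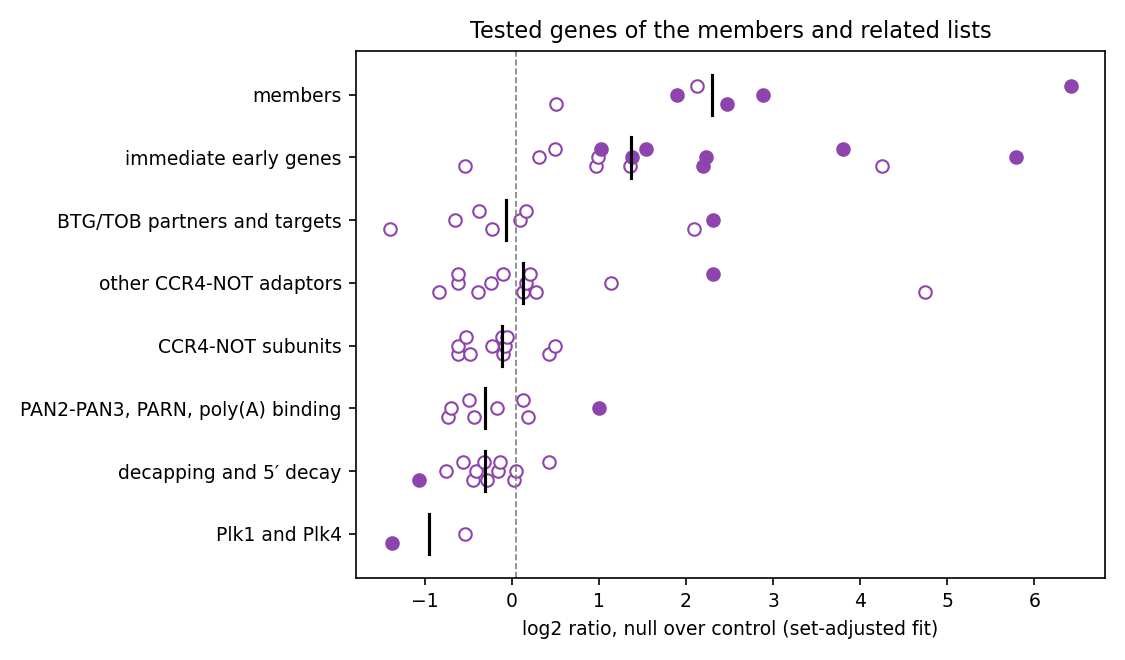
Set-adjusted log2 ratio of null over control for each tested gene of the members and of the 7 related lists; filled points had an adjusted p under 0.05, black bars are list medians and the dashed line the median of all tested genes (0.044). The list medians lie furthest right for the members (2.30) and the immediate early genes (1.37). Single genes of other lists also lie to the right, among them Cpeb2 (4.75, not called), Zfp36 (2.32) and Rb1 (2.31). The CCR4-NOT subunits lie around 0 with no filled point.

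Markers of macrophage, endothelial and megakaryocyte cells summed higher in every null library than in any control library. Erythroid markers led in every library, and those of the liver (Alb at 0 reads in all libraries) and lymphoid cells were near 0, with sums of at most 4.68 and 3.57 CPM. The summed level of 12 macrophage markers was 35.2 to 95.9 CPM in null and 1.92 to 11.2 CPM in control libraries, and 3 of 7 tested rose set-adjusted (Csf1r, Cd68 and C1qb). Emr1, the gene of the macrophage antigen F4/80, had 0, 0.359 and 2.58 CPM in null replicates 1 to 3 (57 reads in all) and 0 reads in the controls. The sum of 8 endothelial markers was 23.6 to 33.3 CPM in null and 3.73 to 11.95 CPM in control libraries, with Pecam1 and Tek higher of 3 tested, Cdh5 at 1 read in all and Emcn at 0. The 7 megakaryocyte markers summed to 42.7 to 82.6 CPM in null and 14.3 to 35.1 CPM in control libraries, with Itga2b higher of 4 tested. Itga2b made up most of that sum in null replicates 1 to 3, at 36.6, 67.1 and 50.1 CPM. Gp9 went the other way (mean 4.06 CPM in null, 5.35 CPM in control libraries). So did Ppbp (0 reads in null, 14 in control libraries) and the endothelial marker Tie1 (1 and 7 reads). The calls among these markers stand beside 8.65% of all tested genes called higher set-adjusted. These marker calls are set-adjusted; with group alone 1 macrophage marker (Cd68), 0 endothelial and 0 megakaryocyte markers were called by edgeR (3, 2 and 1 at unadjusted p under 0.05; 2, 2 and 1 by DESeq2). Among the erythroid markers, Hba-x, Epor and Tfrc were lower in null libraries set-adjusted. The macrophage sum was 35.2, 45.9 and 95.9 CPM in null replicates 1 to 3, of which replicate 1 is unlettered and replicates 2 and 3 lettered. The part of such cells in the members' levels was not tested. In sorted bulk cells more RNA per cell and more cells of a kind cannot be told apart.

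**Figure D5:**
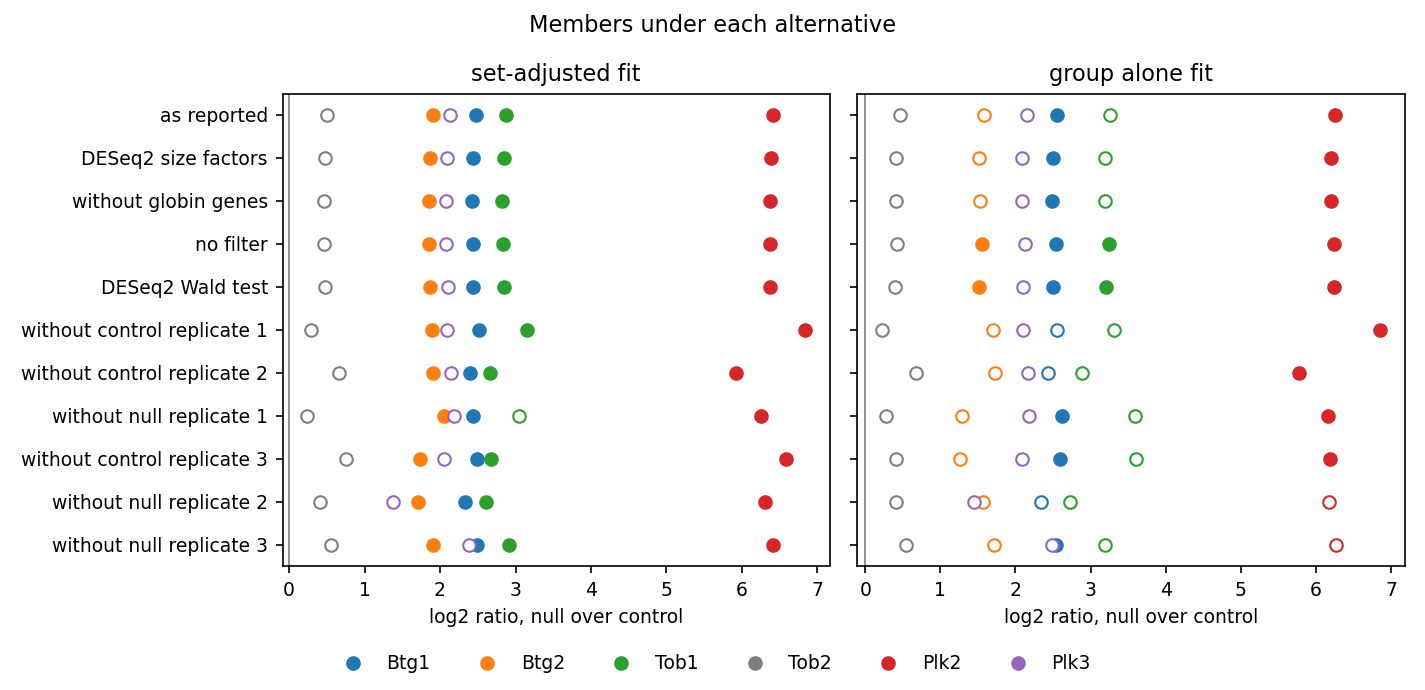
Log2 ratio of null over control for each tested member under each alternative (rows), set-adjusted at left and with group alone at right; filled points had an adjusted p under 0.05. Every ratio is positive in every row, and the set-adjusted calls of Btg1, Btg2 and Plk2 are filled throughout while that of Tob1 is open in 1 row, without null replicate 1.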

How the data were processed

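Polyadenylated RNA of 6 sorted erythroblast samples was analysed, 3 Setd8 null and 3 control, grouped by the genotype label. The values are gene counts that the authors deposited per library as whole numbers, not normalized. Per the submitters' processing notes FastQC, Trimmomatic (0.32), TopHat2 (2.1.0), HTSeq (0.6.1) and edgeR were used with build mm9; the sources used here do not give their options. Where tables held symbols turned into dates, 25 were mapped back to March and Sept genes. Lines that name no gene were left out of library sizes; reads without a feature made up 6.07% to 42.9% of those 3 tables, highest in control replicate 1, and reads without a unique alignment 22.5% to 32.4%.

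Counts were tested in R 4.3.3 with edgeR 4.0.16: filterByExpr by group (10512 genes), TMM factors, glmQLFit with robust=TRUE, glmQLFTest, 2-sided, Benjamini-Hochberg over all tested genes. The fit with the title set had 3 residual degrees of freedom and that with group alone 4. CPM are TMM-scaled; ratios within a set use a prior count of 2. Per-kb levels use GENCODE M21 exon lengths. The fits were also run on simulated counts with known changes. Their spread between replicates was set lower than in the set-adjusted fit here (common coefficient of variation 0.399), and nothing is concluded from them. Alternatives were DESeq2 1.42.0 (its size factors and its Wald test), no filter on low counts, globin genes left out, and each library left out. No label ties a replicate to its own embryo. The controls differ in genotype and in Y-linked reads and so do not all come from 1 embryo, but for the null libraries the spread behind the p-values may be technical. The 7 genes, the lists and both fits were chosen with earlier results of these data known. Named beside the members were each list's called genes, at most 4 by smallest set-adjusted p, and 3 nearest profiles per member. Trp53, Mdm2, Cdkn1a, Cnot7, Cnot8, Plk1, Plk5, Fos and the marker genes were named in addition.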

Additional observations from a re-analysis of the deposited data

How the results depend on the processing

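Members called higher numbered 4 set-adjusted under DESeq2 size factors, without globin genes, without a filter and by the DESeq2 Wald test, and 3 to 4 when single libraries were dropped (3 when null replicate 1 was). With group alone 4 rose without a filter and by the DESeq2 Wald test, and 0 to 2 when single libraries were dropped (0 when null replicate 2 was). In these 2 alternatives Btg2 (adjusted p = 0.0276 and 0.0220) and Tob1 (0.0105 and 2.84e-05) joined Btg1 and Plk2. Members called lower numbered 0 throughout, as did members whose null effect differed between the title sets. No member's log2 ratio changed sign. Over all genes, without a filter 723 were lower set-adjusted, and 264 higher and 16 lower with group alone; by the DESeq2 Wald test 882 were lower set-adjusted, and 697 higher and 197 lower with group alone. With 1 library left out, 162 to 869 genes were higher and 40 to 734 lower set-adjusted, and 3 to 109 higher and 0 to 2 lower with group alone. The cause was not tested, except that fits without a library hold fewer samples and that null replicate 1 and control replicate 3 are each the sole library of their group in their set. No paired analysis was possible because the labels give no replicate numbers; the numbers used here follow the order of deposit and pair nothing. Plk3 rests on 233 reads over the null and 44 over the control libraries, and the controls of Plk2 on 30; whether depth set the missing calls was not tested.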
